A study of Mus musculus with 11 samples.

Results

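Genes of retinoid, alcohol and aldehyde oxidation and reduction were followed in the colon of germ-free mice and of mice that carried a human gut microbiota. A gene was included when its symbol was Adh, Rdh or Dhrs followed by a number alone, Aldh followed by a number, a letter and a number, one of the numbered cellular and plasma retinoid-binding proteins (Rbp, Crabp), or Bco1, Bco2, Stra6, Lrat or Retsat, and when at least 10 reads were counted in at least 5 of the 11 mice. Of 55 matching symbols among the 43346 genes of the table, 47 met this minimum, and all 47 were among the 19863 genes tested. Stra6 and Rdh7 lay just inside the minimum, with 10 reads or more in 6 mice each. Rdh19, with 4 mice, and Aldh3a1, with 3 mice, lay just outside it. The other 6 genes under the minimum were Crabp2, Adh4, Rdh8, Aldh8a1, Rbp3 and Dhrs2. Relatives with symbols of another form, such as Aldh2 and Dhrs7b, are not among the 47 and are described last.

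RNA-Seq was performed on colons of Swiss Webster mice, 5 of them germ-free and 6 humanized, all male and aged 8 to 10 weeks. The humanized mice were germ-free mice of the same strain that had received stool of 1 healthy donor by gavage at 4 to 5 weeks of age, so the comparison cannot separate the microbiota of this donor from colonization in general. Mice of both groups were kept singly in flexible film isolators on an autoclaved diet. No batch is named, and the isolator or library preparation of a group cannot be told apart from its colonization.

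Vitamin A reaches the intestine as retinyl esters and as carotenoids, which Bco1 cleaves to retinal. Retinol is held by binding proteins, stored as esters made by Lrat, and oxidized to retinal by alcohol and short-chain dehydrogenases in a step that retinal reductases reverse. Retinal dehydrogenases of the Aldh1a subfamily then make retinoic acid, the ligand of nuclear receptors, which in the gut is known for its part in lymphocyte homing and in tolerance. The remaining aldehyde dehydrogenases of the family clear aldehydes from amino acids, lipids, alcohol and one-carbon metabolism.

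Of the 47 genes, 7 were upregulated and 5 were downregulated in humanized mice at a false discovery rate (FDR) below 0.01 in edgeR's exact test, and 35 did not pass. That is 25.5% of the genes, beside 19.3% of all genes tested. By direction, the shares were 14.9% beside 9.2% of all genes for upregulation and 10.6% beside 10.1% for downregulation. The median log2-fold change (LFC) of humanized over germ-free mice was 0.07 for the 47 genes and 0.01 for all genes. Dhrs9, Retsat, Rdh16, Adh5, Rdh9, Dhrs1 and Aldh3b2 were higher, and Lrat, Bco1, Aldh1a2, Rbp4 and Rbp7 were lower. For 11 genes, or 23.4% beside 18.4% of all genes, the groups were separate in RPKM, the reads scaled to library size and gene length, 6 with the humanized mice above (8.67% of all genes) and 5 with them below (9.73%). At FDR below 0.05, 15 of the 47 genes passed, beside 28.6% of all genes. Under edgeR's quasi-likelihood test 10 of the 12 calls held and those of Rbp4 and Rbp7 did not, beside 13.6% of all genes called. With libraries scaled to total counts the split became 4 up and 8 down, and the medians moved to −0.13 for the 47 genes and −0.18 for all genes.

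**Figure D1:**
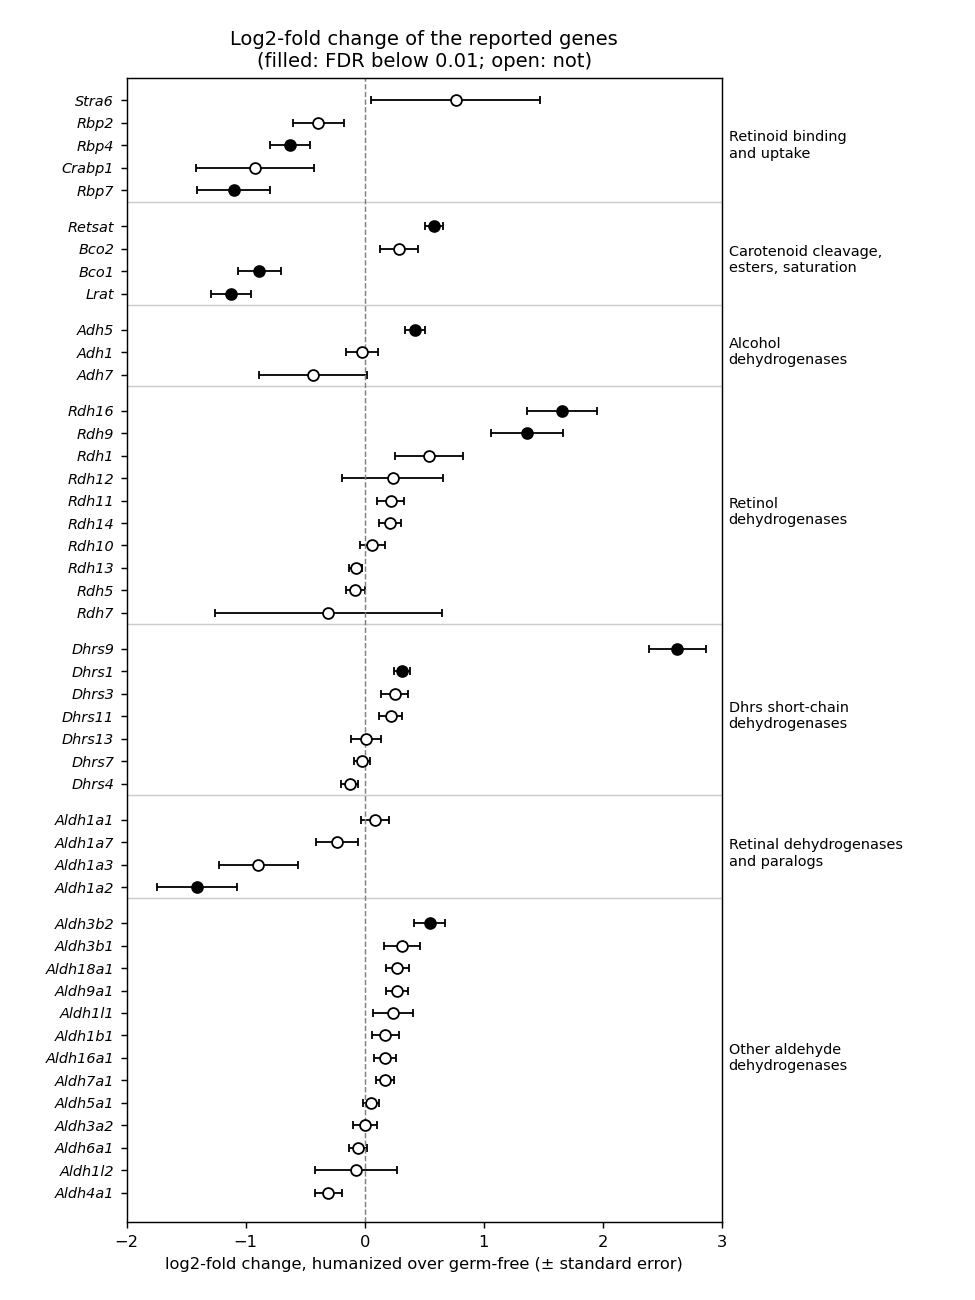
Log2-fold change of humanized over germ-free mice (horizontal axis) for the individually reported genes, in blocks by role; bars are ± 1 standard error, and filled points passed FDR below 0.01. Dhrs9 lies farthest to the right at 2.63 and Aldh1a2 farthest to the left at −1.41, and the filled points of the binding proteins and of Aldh1a2 lie left of 0 while those of the dehydrogenase blocks above and below lie right of it.

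Promoter sequences are shown for the genes with the smallest FDR in each direction, Dhrs9 and Lrat, and for Bco1, because nuclear receptors that pair with the retinoid X receptor bind repeats of the half-site AGGTCA. The 250 bases before the RefSeq transcript start are printed 5′ to 3′ along the gene (RefSeq, GRCm38.p6), with AGGTCA or its reverse complement TGACCT in capitals.
Dhrs9 (chr2:69380212-69380461, plus strand): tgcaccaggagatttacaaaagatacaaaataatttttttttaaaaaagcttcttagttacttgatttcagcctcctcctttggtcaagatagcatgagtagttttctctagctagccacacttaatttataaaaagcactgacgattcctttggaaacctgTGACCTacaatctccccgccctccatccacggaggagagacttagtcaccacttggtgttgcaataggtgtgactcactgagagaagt
Lrat (chr3:82903975-82904224, minus strand): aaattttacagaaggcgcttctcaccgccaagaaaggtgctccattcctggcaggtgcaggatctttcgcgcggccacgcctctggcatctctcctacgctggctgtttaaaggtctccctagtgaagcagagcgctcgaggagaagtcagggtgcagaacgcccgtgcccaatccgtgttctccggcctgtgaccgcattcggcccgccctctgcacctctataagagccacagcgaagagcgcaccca
Bco1 (chr8:117095615-117095864, plus strand): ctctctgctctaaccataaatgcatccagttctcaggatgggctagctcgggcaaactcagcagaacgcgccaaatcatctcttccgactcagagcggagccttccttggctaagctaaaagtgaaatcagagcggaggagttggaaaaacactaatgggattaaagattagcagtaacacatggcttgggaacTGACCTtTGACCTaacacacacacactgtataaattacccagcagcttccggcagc

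The Bco1 window held the half-site in direct repeat with 1 base between the copies, starting 56 and 49 bases before the transcript start. This repeat (AGGTCANAGGTCA or TGACCTNTGACCT) was present in 11 of 32851 promoters of the RefSeq table, 0.0335%, and Bco1 was the only one of the 47 genes among them. The Dhrs9 window held 1 half-site, 88 bases before the start, and the Lrat window held none. Promoters were found for 40 of the 47 genes, 52 windows in all, of which 10 held a half-site on either strand. The share among all promoters of the table was 14.0%. These are matches of letters, and binding was not measured. Bco1 was not picked by its FDR, so the rarity of its repeat is given as a description.

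The carotenoid, ester and saturation enzymes held the gene with the smallest FDR among those downregulated. Lrat, the acyltransferase that esterifies retinol, was at 4.68, 6.01, 6.26, 6.95 and 7.49 RPKM in germ-free mice 1 to 5. In the 6 humanized mice it ranged from 1.86 to 3.97 RPKM with a median of 2.92. All humanized mice lay below all germ-free mice. Lrat was 2.18-fold lower (LFC −1.12 ± 0.17 SE, FDR 1.33e-08).

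Bco1, which cleaves beta-carotene to retinal, was at 1.18, 1.43, 1.64, 1.62 and 1.45 RPKM in germ-free mice 1 to 5 and between 0.460 and 1.002 RPKM, with a median of 0.817, in humanized mice. The ranges were separate, and Bco1 was 1.85-fold lower (LFC −0.89 ± 0.18 SE, FDR 2.52e-04). Bco2, the mitochondrial enzyme that cleaves carotenoids off-centre, had 3.17 ± 0.638 RPKM (SD, n = 5) in germ-free mice against 3.87 ± 0.696 RPKM (SD, n = 6) with overlapping groups (LFC 0.29, FDR 0.261).

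Retsat, which saturates a double bond of retinol, was upregulated. It was at 19.3, 22.5, 19.0, 21.0 and 21.2 RPKM in germ-free mice 1 to 5, and from 27.3 to 34.9 RPKM, with a median of 31.5, in humanized mice. The lowest humanized mouse was above the highest germ-free mouse. The increase was 49.7% (LFC 0.58 ± 0.07 SE, FDR 1.30e-09). In the GENCODE annotation of GRCm38, 18.4% of the exon bases of Retsat lie opposite exons of the antisense gene Gm45053, and the strand of a read was not kept by a library kit of this type, so reads of the pair in that stretch cannot be told apart.

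Among the binding proteins and the retinol receptor, 2 of 6 genes were downregulated and none was upregulated, beside 10.1% and 9.2% of all genes. Rbp7, a cellular retinol-binding protein, was at 3.40, 6.20, 3.14, 4.53 and 2.95 RPKM in germ-free mice 1 to 5 and between 0.762 and 2.83 RPKM, with a median of 1.90, in humanized mice. The ranges were separate by a margin of 2.83 against 2.95 RPKM. Rbp7 was 2.15-fold lower (LFC −1.10 ± 0.31 SE, FDR 0.00451). The call did not hold without germ-free mouse 2 (FDR 0.0276), germ-free mouse 4 (0.0186), or humanized mouse 1 (0.0143), 2 (0.0102) or 6 (0.0159), and all of these fits kept the direction. In tissue sequenced in bulk, fewer cells of a type and less RNA per cell cannot be told apart, here and in the genes that follow.

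Rbp4, the carrier of retinol in plasma, was the most abundant of the binding proteins. It was at 17.2, 17.7, 14.9, 11.8 and 16.4 RPKM in germ-free mice 1 to 5 and between 6.995 and 12.7 RPKM, with a median of 10.8, in humanized mice. Germ-free mouse 4 lay within the humanized range and the other 4 lay above it. Rbp4 was 35.3% lower by the fitted value, LFC −0.63 ± 0.17 SE, FDR 0.00354. The FDR was 0.0178, 0.0171 and 0.0148 without germ-free mouse 1, 2 or 5 and 0.0103 without humanized mouse 1.

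Rbp2, the retinol-binding protein of intestinal absorptive cells, had 8.75 ± 2.02 RPKM (SD, n = 5) in germ-free and 6.68 ± 2.06 RPKM (SD, n = 6) in humanized mice, and did not pass (LFC −0.39, FDR 0.227). Crabp1, which binds retinoic acid in the cytoplasm, was counted from 25 to 78 times in germ-free and from 2 to 30 times in humanized mice (LFC −0.92 ± 0.49 SE, FDR 0.164). Stra6, the membrane receptor that takes retinol from Rbp4, was close to the detection limit with 0 to 24 reads per mouse (FDR 0.491).

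**Figure D2:**
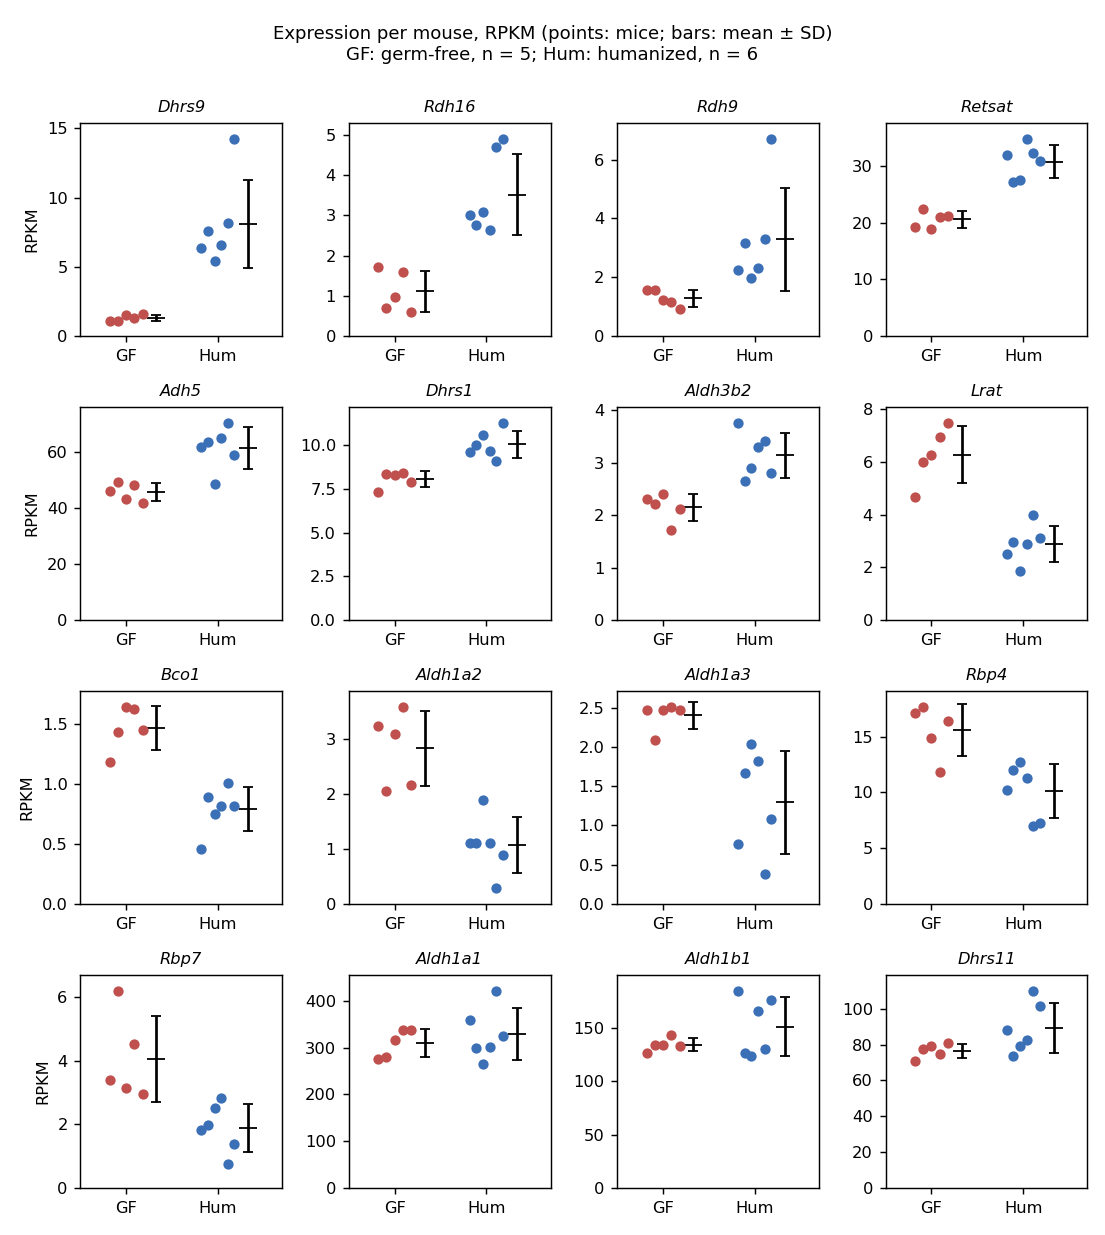
RPKM per mouse (vertical axes, each from 0 and on its own scale) for 16 genes in germ-free (GF, red, n = 5) and humanized mice (Hum, blue, n = 6); points are mice and lines are the mean ± SD. Dhrs9, Rdh16, Rdh9, Retsat, Dhrs1 and Aldh3b2 separate upward, Lrat, Bco1, Aldh1a2, Aldh1a3 and Rbp7 separate downward, and Adh5, Rbp4, Aldh1a1, Aldh1b1 and Dhrs11 overlap between groups.

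The largest change of the 47 genes was that of Dhrs9, a short-chain dehydrogenase that oxidizes retinol and also acts on hydroxysteroids. Dhrs9 was at 1.12, 1.06, 1.48, 1.29 and 1.58 RPKM in germ-free mice 1 to 5. It ranged from 5.42 to 14.3 RPKM, with a median of 7.10, in humanized mice. Every humanized mouse was above every germ-free mouse, and humanized mouse 6 stood above the other 5, of which the highest was at 8.17 RPKM. Dhrs9 was 6.18-fold higher (LFC 2.63 ± 0.24 SE, FDR 2.05e-23). Without humanized mouse 6 the LFC was 2.38 (FDR 1.16e-43).

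Of the other 6 Dhrs genes among the 47, 1 was upregulated, beside 9.2% of all genes. Dhrs1, a short-chain dehydrogenase whose natural substrate is not settled, was at 7.35, 8.37, 8.33, 8.43 and 7.92 RPKM in germ-free mice 1 to 5 and between 9.11 and 11.3 RPKM, with a median of 9.87, in humanized mice. No humanized mouse was as low as a germ-free mouse, and the increase was 24.5% (LFC 0.32 ± 0.07 SE, FDR 0.0023). The FDR was 0.0150 without germ-free mouse 1, 0.0122 without germ-free mouse 5 and 0.0116 without humanized mouse 6. Dhrs1 did not pass with total counts (LFC 0.14, FDR 0.319), scaling to epithelial markers (LFC 0.08, FDR 0.696) or upper-quartile scaling (LFC 0.28, FDR 0.0108).

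Dhrs11, a reductase of steroids and other carbonyls, was the most abundant of these. It was at 70.9, 77.4, 79.4, 74.9 and 80.6 RPKM in germ-free mice 1 to 5 and between 73.8 and 110.1 RPKM, with a median of 85.4, in humanized mice. The ranges overlapped and the gene did not pass (LFC 0.22 ± 0.10 SE, FDR 0.113). With libraries scaled to epithelial markers its LFC was −0.03. Dhrs3, a reductase that returns retinal to retinol, was at 12.9 ± 1.48 RPKM (SD, n = 5) in germ-free and 15.3 ± 2.54 RPKM (SD, n = 6) in humanized mice (LFC 0.25, FDR 0.112). Dhrs4, a peroxisomal carbonyl reductase, was at 27.0 and 24.7 RPKM (FDR 0.313), and passed as lower with total counts and with epithelial scaling. Dhrs7 and Dhrs13 had FDR of 0.886 and 0.975.

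Of 10 retinol dehydrogenases, 2 were upregulated, beside 9.2% of all genes, and they lie side by side on chromosome 10. Rdh16, which oxidizes retinol and androgenic steroids, was at 1.71, 0.691, 0.976, 1.60 and 0.598 RPKM in germ-free mice 1 to 5 and between 2.64 and 4.91 RPKM, with a median of 3.05, in humanized mice. The groups did not overlap, and the highest values were those of humanized mice 5 and 6. Rdh16 was 3.15-fold higher (LFC 1.66 ± 0.29 SE, FDR 1.39e-06). Rdh16 spans 127801152 to 127846565 on mm10.

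Rdh9, a close relative, was at 1.56, 1.56, 1.22, 1.14 and 0.901 RPKM in germ-free mice 1 to 5 and between 1.97 and 6.71 RPKM, with a median of 2.75, in humanized mice. The groups did not overlap, and humanized mouse 6 was far above the next mouse, at 3.31 RPKM. Rdh9 was 2.58-fold higher (LFC 1.37 ± 0.30 SE, FDR 2.19e-04), and without humanized mouse 6 the LFC was 1.02 (FDR 7.80e-05). This value is uncertain in its gene of origin. Of the 101-base windows of the Rdh9 transcript, 87.4% also occur in transcripts of other genes of the cluster, Rdh16f1 among them, which overlaps 64.1% of the exon bases of Rdh9 in GENCODE. The table lists a further gene, Gm28046, over the same stretch. Gm28046 had 220 to 1122 reads per mouse where Rdh9 had 226 to 1208, with an LFC of 1.33 (FDR 1.62e-04). For Rdh16 the shared windows were 6.57%.

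The other retinol dehydrogenases of this cluster did not pass over all mice. Rdh1, at the upstream end, was counted 124 to 305 times in germ-free and 123 to 329 times in humanized mice (LFC 0.54 ± 0.28 SE, FDR 0.194). Rdh19, under the read minimum, had 2 to 17 reads in germ-free and 6 to 15 in humanized mice (FDR 0.0748). Rdh7 differed from its neighbours in how its reads were spread. It had 13, 27, 11, 27 and 17 reads in germ-free mice 1 to 5, and 0, 2, 1, 1 and 3 reads in humanized mice 1 to 5, but 68 reads in humanized mouse 6. Over all mice its LFC was −0.30 ± 0.95 SE (FDR 0.866). Rdh7 met the read minimum through the 5 germ-free mice and humanized mouse 6, the only humanized mouse with 10 reads or more. Leaving that mouse out therefore removes the value that goes against the others, and the fit without it gave an LFC of −3.15 (FDR 8.82e-07), which is given as a description. Levels of Rdh7 were below 1 RPKM in every mouse.

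**Figure D3:**
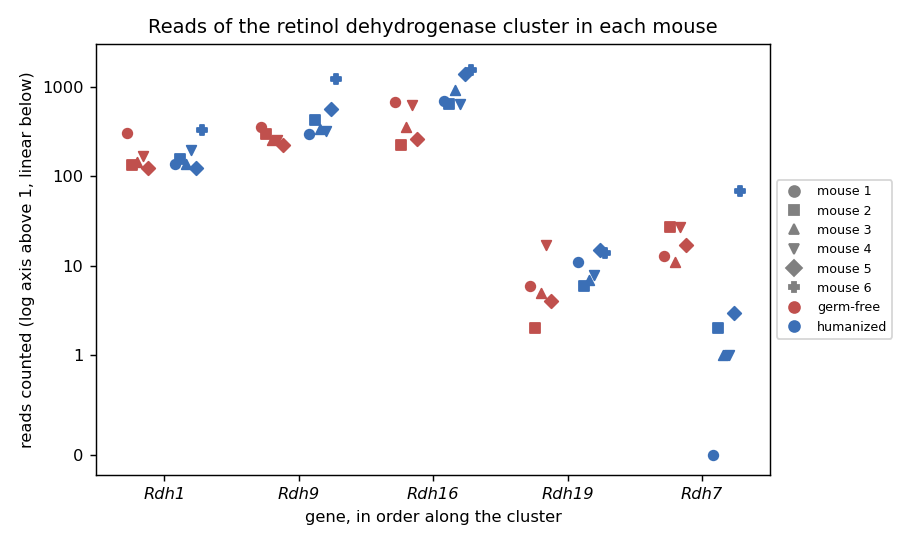
Reads counted per mouse (vertical axis, logarithmic above 1 and linear below) for 5 genes of the retinol dehydrogenase cluster, in their order along chromosome 10; colours are the groups and symbols the number of the mouse within its group. Humanized mouse 6 is the highest for Rdh1, Rdh9, Rdh16 and Rdh7, and for Rdh7 its 68 reads stand apart from the 0 to 3 reads of the other humanized mice.

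The remaining retinol dehydrogenases had overlapping groups and did not pass. Rdh10, which makes most of the retinal used for retinoic acid in the embryo, was at 11.1 ± 1.62 RPKM (SD, n = 5) in germ-free and 11.6 ± 1.52 RPKM (SD, n = 6) in humanized mice (LFC 0.07 ± 0.11 SE, FDR 0.737). Rdh14 and Rdh11, which mainly reduce retinal, had an LFC of 0.21 (FDR 0.121) and 0.22 (FDR 0.205). Rdh13, a mitochondrial reductase, had an LFC of −0.07 (FDR 0.487), and Rdh5, known for the visual cycle of the eye, one of −0.08 (FDR 0.589). Rdh5 passed as lower with total counts. Rdh12, a photoreceptor reductase, had 6 to 33 reads per mouse (FDR 0.772).

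Among the 3 alcohol dehydrogenases, Adh5 was upregulated. Adh5 is the glutathione-dependent formaldehyde dehydrogenase found in nearly all cells. It was at 46.2, 49.2, 43.2, 48.1 and 41.6 RPKM in germ-free mice 1 to 5 and between 48.3 and 70.4 RPKM, with a median of 62.7, in humanized mice. Humanized mouse 3, the lowest, fell inside the germ-free range and the other 5 lay above it. The increase was 34.1% (LFC 0.42 ± 0.09 SE, FDR 1.87e-04). The gene did not pass with total counts (LFC 0.23, FDR 0.0281) or epithelial scaling (LFC 0.17, FDR 0.298). Adh1, the class I enzyme of ethanol and retinol oxidation, was about as abundant, with 52.4 ± 5.21 RPKM (SD, n = 5) in germ-free and 51.6 ± 11.4 RPKM (SD, n = 6) in humanized mice (LFC −0.02 ± 0.13 SE, FDR 0.929). Adh7, the class IV enzyme of upper digestive epithelium, had 2 to 37 reads per mouse (FDR 0.540).

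Of the 4 retinal dehydrogenases and paralogs, Aldh1a2 was downregulated. Aldh1a2, the retinal dehydrogenase of many mesenchymal and some myeloid cells, was at 3.24, 2.06, 3.10, 3.59 and 2.16 RPKM in germ-free mice 1 to 5 and between 0.298 and 1.88 RPKM, with a median of 1.11, in humanized mice. The groups did not overlap, and humanized mouse 5 was the lowest. Aldh1a2 was 2.66-fold lower (LFC −1.41 ± 0.34 SE, FDR 5.67e-04), and 3 of the 47 genes (Aldh1a2, Lrat and Rbp7) passed with an LFC below −1, beside 6.41% of all genes.

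Aldh1a3, the third enzyme that makes retinoic acid, was at 2.46, 2.09, 2.47, 2.51 and 2.47 RPKM in germ-free mice 1 to 5 and between 0.379 and 2.04 RPKM, with a median of 1.38, in humanized mice. The ranges were separate by a narrow margin, 2.04 against 2.09 RPKM, but the gene did not pass (LFC −0.89 ± 0.33 SE, FDR 0.0346). Without humanized mouse 3 it passed (LFC −1.07, FDR 0.00905). No other fit that left out a single mouse passed. Their FDR ran from 0.0130 (without humanized mouse 5) to 0.0902 (without humanized mouse 1).

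Aldh1a1, the epithelial retinal dehydrogenase, was the most abundant of the 47 genes. It was at 276, 280, 316, 338 and 339 RPKM in germ-free mice 1 to 5 and between 266 and 422 RPKM, with a median of 313, in humanized mice. The ranges overlapped and the difference did not pass (LFC 0.09 ± 0.11 SE, FDR 0.650), and the sign turned with total counts (−0.11) and with epithelial scaling (−0.17). Of the RPKM summed over Aldh1a1, Aldh1a2 and Aldh1a3, Aldh1a1 made up 98.3% ± 0.268 (SD, n = 5) in germ-free and 99.2% ± 0.446 (SD, n = 6) in humanized mice. Aldh1a7, a rodent paralog of Aldh1a1, was at 7.33 and 6.24 RPKM (LFC −0.23, FDR 0.412).

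Of the 13 other aldehyde dehydrogenases among the 47, 1 passed (7.69%, beside 19.3% of all genes), and it was upregulated. Aldh3b2, which oxidizes lipid-derived aldehydes, was at 2.30, 2.21, 2.40, 1.72 and 2.11 RPKM in germ-free mice 1 to 5 and between 2.65 and 3.76 RPKM, with a median of 3.10, in humanized mice. All humanized mice were above all germ-free mice, and the increase was 46.0% (LFC 0.55 ± 0.13 SE, FDR 0.00454). The gene did not pass with total counts (LFC 0.36, FDR 0.0773) or epithelial scaling (LFC 0.29, FDR 0.285). The FDR lay above 0.01 without germ-free mouse 1 (0.0106), 2 (0.0136), 4 (0.0283) or 5 (0.0198) and without humanized mouse 1 (0.0177) or 4 (0.0136). Of its 101-base windows, 13.9% also occur in the neighbouring paralog Aldh3b3.

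Aldh1b1, the mitochondrial enzyme of acetaldehyde and retinal oxidation that marks crypt cells, was second in abundance. It was at 126, 134, 133, 143 and 133 RPKM in germ-free mice 1 to 5 and between 124 and 185 RPKM, with a median of 148, in humanized mice. The humanized mice spread over a wider range that included the germ-free values (LFC 0.17 ± 0.11 SE, FDR 0.302), and the sign turned with total counts (−0.01) and epithelial scaling (−0.08).

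Aldh9a1, which acts in carnitine synthesis, and Aldh18a1, which makes the precursor of proline, had an FDR of 0.0332 and 0.0427 (LFC 0.27 and 0.28), and Aldh18a1 passed without humanized mouse 5 (LFC 0.34, FDR 2.76e-04). Aldh4a1, which degrades proline, had an LFC of −0.30 (FDR 0.0717) and passed as lower with total counts, and 42.6% of its windows are shared with the overlapping gene Gm21969. The enzymes of lipid aldehydes, Aldh3a2 and Aldh3b1, had an LFC of 0.00 (FDR 1) and 0.31 (FDR 0.193). Those of amino acid breakdown, Aldh5a1, Aldh6a1 and Aldh7a1, had an LFC of 0.05, −0.06 and 0.17, with FDR from 0.246 to 0.699. The folate enzymes Aldh1l1 and Aldh1l2 had an LFC of 0.24 (FDR 0.365) and −0.07 (FDR 0.919), and Aldh16a1 one of 0.17 (FDR 0.230).

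Levels spanned a wide range within the 47 genes. By the mean of the higher group, 2 genes reached 100 RPKM, 17 lay between 10 and 100 RPKM, 22 between 1 and 10 RPKM and 6 below 1 RPKM. None of the 3 most abundant genes, Aldh1a1, Aldh1b1 and Dhrs11, passed. The median coefficient of variation over the 47 genes was 11.5% among germ-free and 18.1% among humanized mice. Among the humanized mice, mouse 5 was the lowest for 16 genes, mouse 3 for 14, mouse 2 for 8, mice 1 and 6 for 4 each and mouse 4 for 1. Mouse 5 was the highest for 12 genes, mouse 6 for 11, mouse 1 for 10, mouse 4 for 7, mouse 3 for 5 and mouse 2 for 2.

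Cell type markers moved between the same groups. All 9 smooth muscle markers and 4 of 6 fibroblast markers (Dpt, Lum, Col14a1, Dcn) were downregulated, with median LFC of −1.93 and −1.57. The summed fibroblast markers were between 122 and 248 RPKM in germ-free and between 16.6 and 114 RPKM in humanized mice. The 5 endothelial markers summed to 15.2 to 17.8 RPKM in germ-free and 1.85 to 13.7 RPKM in humanized mice, with FDR from 0.0134 to 0.323 and a median LFC of −1.003. Of 7 macrophage and dendritic cell markers 1 was downregulated (Zbtb46), and the sums were 13.3 to 15.8 and 3.46 to 17.0 RPKM. The 11 epithelial markers, none of them under 1 RPKM, summed to 4429 to 6032 RPKM and 5087 to 7063 RPKM, with 2 upregulated (Krt18, Lgals4). Of 5 enteric glia markers 4 were downregulated (median LFC −1.56), with sums of 3.44 to 5.34 and 0.627 to 1.92 RPKM. Of 3 plasma cell markers 2 were upregulated, Tnfrsf17 (LFC 3.32) and Derl3 (LFC 2.28). The 6 adipocyte markers summed to 30.9 RPKM in germ-free mouse 4, to 3.37 to 5.37 RPKM in the other germ-free mice and to 4.69 to 9.82 RPKM in humanized mice, and the 2 that were tested (Cidec, Cfd) did not pass. Adipoq had 333 reads in germ-free mouse 4 and 0 to 40 in every other mouse. Without that mouse Rbp4 passed (LFC −0.71, FDR 0.00142), and Rbp7 did not, as given above. The part of these markers in either result was not tested. No fibroblast or endothelial marker was at 0 in any mouse.

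Humanized mouse 5 had the lowest sums of smooth muscle, fibroblast, endothelial and macrophage markers, and also the lowest Aldh1a2, Aldh1a3, Rbp4, Rbp7 and Crabp1. It was the lowest humanized mouse for 16 of the 47 genes, and these include Dhrs1, which was upregulated. In Lrat and Bco1 it was the highest of the humanized mice. Divided by the fibroblast sum of the same mouse, the ranges of all 6 genes (Aldh1a2, Aldh1a3, Rbp7, Rbp4, Lrat and Bco1) overlapped between groups. The medians per 100 RPKM of markers were 1.63 in germ-free and 1.54 in humanized mice for Aldh1a2, 1.25 and 1.98 for Aldh1a3, 1.72 and 2.97 for Rbp7, 8.09 and 14.96 for Rbp4, 3.29 and 3.95 for Lrat, and 0.715 and 1.05 for Bco1. All 6 also overlapped when divided by the endothelial sum. Divided by the epithelial sum, Aldh1a2, Aldh1a3, Rbp7 and Rbp4 overlapped. Lrat, between 0.106 and 0.135 per 100 RPKM in germ-free and between 0.0367 and 0.0568 in humanized mice, did not, and neither did Bco1, at 0.0240 to 0.0313 and 0.00692 to 0.0156. Medians by the epithelial sum were 0.0579 in germ-free and 0.0175 in humanized mice for Aldh1a2, and 0.0461 and 0.0223 for Aldh1a3. They were 0.0768 and 0.0311 for Rbp7, and 0.279 and 0.171 for Rbp4. With libraries scaled to epithelial markers, Aldh1a2 (LFC −1.61, FDR 0.00114), Rbp4 and Rbp7 passed as downregulated. Aldh1a3 did not pass (LFC −1.07, FDR 0.0293). With libraries scaled to the fibroblast markers the median LFC of all genes moved to 1.90, so that genes take a positive sign by construction unless their decrease was large. The LFC was then 0.03 for Aldh1a2, 0.51 for Aldh1a3, 0.33 for Rbp7, 1.06 for Rbp4, 1.12 for Bco1 and 1.001 for Lrat, each below that median. The part of cell composition in these differences was not tested.

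**Figure D4:**
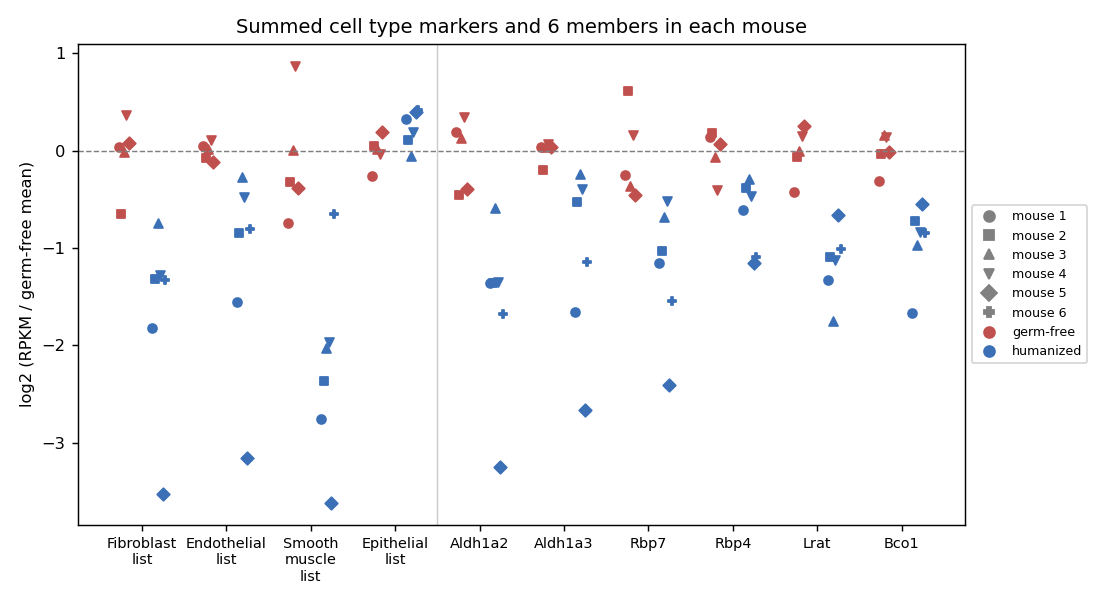
RPKM of each mouse over the germ-free mean (vertical axis, log2) for 4 summed marker lists, left of the line, and 6 genes, right of it; colours are the groups and symbols the number of the mouse within its group. Humanized mouse 5 is lowest for the fibroblast, endothelial and smooth muscle lists and for Aldh1a2, Aldh1a3, Rbp7 and Rbp4, and is the highest humanized mouse for Lrat and Bco1.

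Of 30 further genes of retinoid handling and aldehyde oxidation that are not among the 47, 20 were tested, with 3 upregulated and 3 downregulated. That is 30% of those tested, beside the 19.3% of all genes. Aldh2, the mitochondrial acetaldehyde dehydrogenase, rose from 54.1 ± 5.16 RPKM (SD, n = 5) to 75.0 ± 14.8 RPKM (SD, n = 6), with an LFC of 0.47 and an FDR of 0.00455. Dhrs7b (LFC 0.44, FDR 0.00627) and Scarb1, the receptor for lipoproteins and carotenoids (LFC 0.41, FDR 0.00774), were also upregulated. None of these 3 passed with total counts (FDR 0.0704 for Aldh2, 0.0870 for Dhrs7b and 0.206 for Scarb1) or with epithelial scaling (0.228, 0.180 and 0.471). Stra6l, a retinol transporter related to Stra6 (LFC −0.42, FDR 0.0066), and the retinoid-responsive genes Tgm2 (LFC −0.50, FDR 0.0077) and Rarres2 (LFC −0.75, FDR 0.00998) were downregulated. The other 4 of the 6 retinoid-responsive genes did not pass. Rarres1 had an LFC of −0.19 (FDR 0.823), and the lymphocyte homing genes Ccr9, Itga4 and Itgb7 had an LFC of 0.10 (FDR 0.816), −0.12 (FDR 0.858) and 0.20 (FDR 0.655).

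These 6 calls lay near the threshold. DESeq2 also called 6, but none held in edgeR's quasi-likelihood test, where the smallest FDR among them was 0.0200, and by the exact test 11 of the 20 genes had an unadjusted p below 0.05, beside 7438 of all 19863 genes. When 1 mouse was left out, the number of calls was 0 without germ-free mouse 1 or humanized mouse 1, 1 without germ-free mouse 2 or 5, 2 without germ-free mouse 3 or 4 or humanized mouse 6, 3 without humanized mouse 2 or 4, 4 without humanized mouse 3 and 6 without humanized mouse 5. Calls over all genes moved too, from 1827 up and 1999 down with all mice to 1359 and 1662 without germ-free mouse 1. They were 1495 and 1676 without humanized mouse 1, and 1876 and 2270 without humanized mouse 5.

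The retinoic acid receptors did not pass. Rara was at 6.43 ± 0.195 RPKM (SD, n = 5) in germ-free and 5.60 ± 0.479 RPKM (SD, n = 6) in humanized mice (LFC −0.20, FDR 0.0610). Rarg was at 9.88 and 7.86 RPKM (LFC −0.33, FDR 0.0153), and Rarb at 0.416 and 0.223 RPKM (LFC −0.90, FDR 0.0293). With total counts all of these passed as downregulated, with FDR of 3.54e-04, 1.18e-04 and 0.00723. With epithelial scaling Rara (FDR 0.00573) and Rarg (0.00295) passed and Rarb (0.0131) did not. Of all genes called, 82.4% were lower with total counts and 84.5% with epithelial scaling, beside 52.2% in the main fit. Of their partners, Rxra had an LFC of 0.06 (FDR 0.671) and Rxrb one of 0.19 (FDR 0.0483). Of the enzymes that degrade retinoic acid, Cyp26b1 was at 0.849 and 0.471 RPKM (FDR 0.158), and Cyp26a1, at 0.0135 and 0.00793 RPKM, was not tested. Isx, a transcription factor known to repress Bco1 and Scarb1 in the intestine, was at 113 ± 5.42 RPKM (SD, n = 5) and 126 ± 23.6 RPKM (SD, n = 6) and did not pass (LFC 0.16, FDR 0.343).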

How the data were processed

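RNA of the colon was measured in 5 germ-free and 6 humanized mice. Per the labels, the authors mapped paired reads of 101 bp to mm10 with TopHat2 2.1.0 and Bowtie2 2.2.3 and counted them with featureCounts (Subread 1.4.6-p5). The deposited values are raw counts per gene. The annotation release, the handling of reads that fit several genes and the calculation of the deposited coding length are not given in the sources used here. Total counts were between 49097005 and 64148538 in germ-free and between 39125290 and 54219854 in humanized mice. TMM factors were 1.03 to 1.12 and 0.876 to 1.03. Mice of the same group differed by far more than counting error.

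The analysis used edgeR 4.0.16 (R 4.3.3), following the study's methods. The steps were filterByExpr defaults, TMM, the exact test over 19863 genes and Benjamini–Hochberg correction over all of them. Standard errors came from the quasi-likelihood fit. RPKM used TMM-scaled libraries and the deposited coding lengths, so a level depends on that length. The test was tried on simulated counts. Genes given per mouse are those at FDR below 0.01 with at least 1 RPKM in a group, the 3 most abundant, and Aldh1a1, Aldh1a2 and Aldh1a3. Rdh7 and the leave-one-out genes were added after their values were seen. The genes, lists and markers were chosen with earlier results of these data known. Exon overlap and shared windows came from GENCODE for GRCm38, which need not be the release counted, and promoters from RefSeq. Alternatives were the quasi-likelihood test, DESeq2 1.42.0, RLE, upper-quartile and total-count scaling, scaling to epithelial markers, other filters and thresholds, a replicate block, and leaving out each mouse. Scaling to fibroblast markers was added after seeing the data. Dhrsx of the pathway list was not analysed here. Results of 1 of the 47 genes are included in counts and medians but not reported here individually.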

Additional observations from a re-analysis of the deposited data

Results flagged for a closer look

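In 56 groups of 5 or 6 mice, 5 held a mouse far from the others by Dixon's criterion, and chance alone flags about 1 in 20 such groups. Rdh7 was added after its values were seen, so the number of flags cannot be weighed against that rate. Humanized mouse 6 accounted for 3 of the 5 flagged groups, that of Rdh7 included. It had 14.3 RPKM of Dhrs9 where the next mouse had 8.17 RPKM, 6.71 RPKM of Rdh9 where the next had 3.31 RPKM, and 0.809 RPKM of Rdh7 where the next had 0.0376 RPKM. Germ-free mouse 2 had 2.09 RPKM of Aldh1a3, below the nearest germ-free mouse at 2.46 RPKM, and the FDR of Aldh1a3 without it was 0.0483. Germ-free mouse 1 had 1.87 RPKM of Cyp26b1, above the nearest at 0.744 RPKM, and without it the LFC of Cyp26b1 was −0.34 (FDR 0.620).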

How the results depend on the processing

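Among the 47 genes, 12 were called. The count stayed between 9 and 13 when single mice were left out (5 to 8 up, 3 to 6 down), and the same 12 genes were called by DESeq2, with RLE and without a filter. With an absolute LFC above 1 the count was 6 (3 up, 3 down), beside 405 up and 1273 down of all 19863 genes. The quasi-likelihood test left 7 up and 3 down, beside 1401 and 1298 of all genes. Total counts gave 4 up and 8 down, and epithelial scaling gave 4 up and 6 down. Of all genes called, 82.4% were lower with total counts and 84.5% with epithelial scaling, beside 52.2%. The median LFC of all genes was −0.23 with epithelial scaling. The signs of Aldh1a1 (−0.17 and −0.11), Aldh1b1 (−0.0809 and −0.0146) and Dhrs11 (−0.0347, epithelial only) turned. Scaling to fibroblast markers, added after seeing the data, moved the median of all genes to 1.90, which by construction turned the signs of Aldh1a2 (0.0345), Aldh1a3 (0.51), Bco1 (1.12), Lrat (1.001), Rbp4 (1.06) and Rbp7 (0.33). Of the 20 pathway genes, 6 were called, 10 at FDR below 0.05, 3 without a filter, 0 in the quasi-likelihood test and 0 to 6 when single mice were left out. Numbers of the mice did not pair them (correlations of −0.13 to 0.09, 2 of 5 germ-free mice closest to their own number), and a replicate block left 4 of the 47 genes (2 up, 2 down), 3 of them among the 12 and Rdh7 added, and 0 pathway genes. Humanized mouse 6 shares its number with no germ-free mouse, so the block in effect leaves it out, and the LFC of Rdh7 was −3.13 with the block (FDR 0.00809) and −3.15 without that mouse. Over all 19863 genes the block left 506 up and 506 down, beside 1827 and 1999. For changes with the processing the cause was not tested. Depth limits Stra6, Rdh7, Rdh12, Adh7 and Crabp1, which had under 10 reads in some mice.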
